A study of Mus musculus with 10 samples.

Results

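Transcripts of 10 inflammasome and inflammatory cytokine genes were followed in the ovaries of young, aged and CEFFE-treated aged mice. The genes were chosen by symbol from general knowledge of the pathway: Nlrp3, Pycard, Casp1 and Gsdmd for the inflammasome itself, Il1b and Il18 for the cytokines it matures, Il1a, Tnf and Il6 for other inflammatory cytokines, and Il1rn for the natural antagonist of the IL-1 receptor. All 10 were found among the 55487 genes of the deposited table, and 8 of them were among the 18956 genes with enough reads to be tested, the exceptions being Il6 and Tnf. In Aged ovaries the transcripts of Casp1, Il18 and Il1b were higher than in Control ovaries, while those of Nlrp3, Pycard, Gsdmd, Il1a and Il1rn did not pass the test. Il1b had enough reads to be tested only through the Aged and Aged+CF ovaries. In Aged+CF ovaries, Casp1, Il18 and Il1b lay between the other groups, and the change from Aged did not pass the test for any of the 8 tested genes.

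Ovaries came from 10 female mice of C57BL/6J background, with a library of total RNA for each ovary. The Control group held 4 mice aged 8 weeks (replicates 31, 32, 33 and 34). The Aged group held 3 mice (replicates 31, 33 and 34) and the Aged+CF group 3 mice (replicates 30, 32 and 34), 11 months old by the labels and 10 months old by the study's methods. Aged+CF mice were given 200 μL of CEFFE, a cell-free extract of fat that holds its soluble proteins (3 μg/μL), through the tail vein every 2 days for 2 weeks, and Control and Aged mice an equal volume of saline. All groups, Control included, had been primed with 10 IU of PMSG, a gonadotropin that drives follicle growth, 48 h before collection. Aging was natural, with no transgene or induced injury, and each library holds a whole ovary with all of its cell types.

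An inflammasome is a cytosolic complex in which a sensor such as NLRP3 recruits the adaptor ASC, the product of Pycard, and through it the protease caspase-1. Caspase-1 cleaves the precursors of IL-1β and IL-18 into active cytokines and opens the pore-forming protein gasdermin D, and macrophages and other myeloid cells are well known sources of these transcripts. In the ovary, cytokines of the IL-1 family are known to take part in ovulation. Because maturation happens at the protein level, RNA values measure the supply of precursors and not the activity of the complex.

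Between 15761789 and 21318254 reads were counted on genes per ovary. Values for one gene are given as CPM, the read counts scaled to library size by TMM, and levels of different genes are compared only as the deposited FPKM, which are also divided by gene length. A gene was called where the edgeR quasi-likelihood test gave a Benjamini-Hochberg adjusted p under 0.05 over all genes tested and the fold change was at least 1.5. The looser call used the unadjusted p. Aged replicate 34 stood apart: its log2 CPM correlated at 0.921 and 0.945 with the other Aged ovaries, which correlated at 0.967 with each other, so results that rest on it are also given without it. Granulosa cell markers summed to between 2214 and 6866 CPM and oocyte markers to between 11.2 and 443 CPM over the 10 ovaries, so defining ovarian transcripts were present in every library. Oviduct markers summed to 395 CPM in Control 33 and to 306 CPM in Aged 34, with at most 37.2 CPM in each of the others.

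On the FPKM scale, the cytokine transcripts other than Il18 were rare in every group. In Control ovaries (n = 4) the highest level was that of Gsdmd with 6.14 ± 0.373 FPKM, before Il18 with 4.69 ± 0.620 and Pycard with 2.96 ± 0.228. Casp1 followed with 0.482 ± 0.0296 FPKM, Il1a with 0.370 ± 0.166, Nlrp3 with 0.362 ± 0.113 and Il1rn with 0.206 ± 0.0585. The lowest levels were those of Il1b with 0.0901 ± 0.0822 FPKM, Tnf with 0.0795 ± 0.0286 and Il6 with 0.0461 ± 0.0379. From Casp1 downward, the mean ± SD ranges of neighbours in this order overlapped, whereas those of Gsdmd, Il18, Pycard and Casp1 were separate. In Aged ovaries (n = 3) Il18 came first with 8.76 ± 1.08 FPKM, before Gsdmd with 6.11 ± 3.08 and Pycard with 3.27 ± 0.792, and Il1b came after Casp1, with 0.696 ± 0.273 against 1.12 ± 0.271. The mean ± SD ranges of these neighbours overlapped except between Pycard and Casp1. Below Il1b stood Il1a with 0.597 ± 0.278 FPKM, Nlrp3 with 0.516 ± 0.418, Il1rn with 0.202 ± 0.179, Tnf with 0.172 ± 0.174 and Il6 with 0.0957 ± 0.128, each overlapping the next. In Aged+CF ovaries (n = 3) Il18 stood at 6.96 ± 0.718 FPKM, Gsdmd at 6.42 ± 0.392, Casp1 at 0.815 ± 0.0799 and Il1b at 0.286 ± 0.0610, and Il1b ranked below Nlrp3 with 0.421 ± 0.240 and Il1a with 0.359 ± 0.0793. Pycard stood there at 2.86 ± 0.161 FPKM, Il1rn at 0.226 ± 0.123, Il6 at 0.136 ± 0.0339 and Tnf at 0.134 ± 0.0837.

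**Figure D1:**
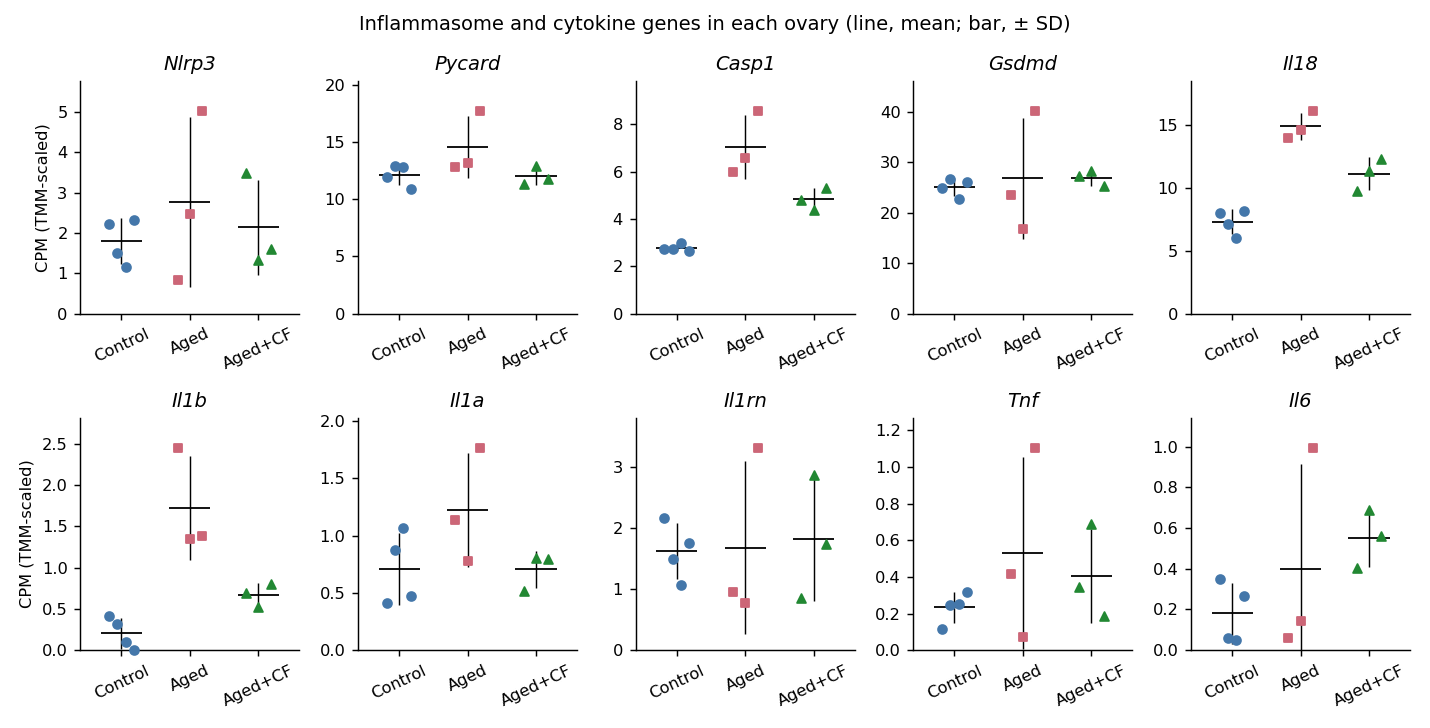
Each panel plots a gene's CPM (TMM-scaled, y axis from 0) in the 10 ovaries by group, with a line at the mean and a bar of ± SD, which is cut at 0 where it would go below. Casp1, Il18 and Il1b are lowest in the Control ovaries, highest in the Aged ovaries and between them in the Aged+CF ovaries with no overlap, while Nlrp3, Gsdmd, Il1rn, Tnf and Il6 show a wide spread among the Aged ovaries.

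The Aged vs Control comparison asked which of these transcripts change with age. Of the 10 genes, 3 were called, all higher in Aged (Casp1, Il18 and Il1b), 5 were tested and not called, and 2 could not be tested. Of all genes tested, 11.1% were called in this comparison, 5.0% as higher and 6.06% as lower in Aged. Il1b passed the filter on low counts through the Aged ovaries (3 of 3) and the Aged+CF ovaries (2 of 3) and through none of the 4 Control ovaries, so it could be tested only because it was higher there. The 3 called genes kept their calls when any 1 of the 10 ovaries was left out, and in each of them the lowest Aged ovary was above the highest Control ovary, as for 11.8% of all genes tested. In whole-ovary RNA, more cells of a type and more RNA per cell cannot be told apart.

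Casp1 (ENSMUSG00000025888, chr9:5298517-5307265, plus strand of GRCm38) encodes caspase-1, the protease of the complex. Its level was 2.74, 2.74, 2.99 and 2.65 CPM in Control 31, 32, 33 and 34, against 5.97, 6.56 and 8.55 CPM in Aged 31, 33 and 34. Every Aged ovary was thus above every Control ovary, and the Control ovaries lay close together. The fitted fold change was 2.52 (log2 1.33, SE 0.18, 95% interval 0.93 to 1.74; edgeR adjusted p = 0.00497). Without Aged 34 the log2 fold change was 1.20 (edgeR adjusted p = 0.00300).

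Il18 (ENSMUSG00000039217, chr9:50554827-50581840, plus strand) encodes IL-18, a caspase-1 substrate that is held as a precursor in many resting tissues and acts on lymphocytes once it is released. In the order of ovaries given for Casp1, Control ovaries held 7.99, 7.11, 5.98 and 8.11 CPM and Aged ovaries 14.0, 14.6 and 16.1 CPM. The groups did not overlap, and no Aged ovary was far from the others. The fitted fold change was 2.04 (log2 1.03, SE 0.15, 95% interval 0.69 to 1.36; edgeR adjusted p = 0.00527).

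Il1b (ENSMUSG00000027398, chr2:129364570-129371139, minus strand) encodes the precursor of IL-1β, which myeloid cells make upon priming. The reads behind it were few: 7, 5, 2 and 0 in the Control ovaries and 41, 19 and 25 in the Aged ovaries. In CPM these were 0.408, 0.312, 0.101 and 0 in Control, where the count of 0 in Control 34 allows up to 0.159 CPM, and 2.45, 1.34 and 1.38 in Aged. The lowest Aged ovary was above the highest Control ovary, and here Aged 31, not Aged 34, was the highest. The fitted fold change was 8.40 (log2 3.07, SE 0.65, 95% interval 1.63 to 4.51; edgeR adjusted p = 0.0150). Il1b passed the filter on low counts only through Aged and Aged+CF ovaries, so this p is not independent of its being high there. Leaving out 1 ovary at a time moved the log2 fold change between 2.65 and 3.65.

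The start regions of these 3 genes are shown because their transcripts rose together. The 250 bases upstream of each RefSeq start (assembly GRCm38.p6, printed 5′ to 3′ on the strand of the gene) were searched on both strands for TATAAA, the AP-1-like TGANTCA, the PU.1 core GAGGAA, the C/EBP-like TTNNGNAA, a κB-like motif (GGG and CC with any 5 bases between them) and an IRF-like motif (a pair of GAAA with any 2 bases between them), and matches are in capitals. The windows are chr9:5298267-5298516 on the plus strand for Casp1, chr9:50554450-50554699 on the plus strand for Il18 and chr2:129371140-129371389 on the minus strand for Il1b.
Casp1: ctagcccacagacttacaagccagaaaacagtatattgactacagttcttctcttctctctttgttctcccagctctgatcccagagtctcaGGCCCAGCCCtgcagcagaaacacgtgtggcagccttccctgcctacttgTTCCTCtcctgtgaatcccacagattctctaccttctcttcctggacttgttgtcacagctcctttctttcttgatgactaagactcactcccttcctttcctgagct
Il18: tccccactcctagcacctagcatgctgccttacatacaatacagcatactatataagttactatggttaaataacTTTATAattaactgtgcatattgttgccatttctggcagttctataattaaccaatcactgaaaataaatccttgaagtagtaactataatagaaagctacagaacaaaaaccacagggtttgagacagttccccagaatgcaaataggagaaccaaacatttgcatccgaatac
Il1b: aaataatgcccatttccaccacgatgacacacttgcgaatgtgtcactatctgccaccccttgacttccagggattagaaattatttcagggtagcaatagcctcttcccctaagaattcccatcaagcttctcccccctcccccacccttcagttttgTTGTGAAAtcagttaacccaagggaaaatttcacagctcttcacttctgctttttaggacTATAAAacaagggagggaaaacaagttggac
In the Il1b window TATAAA began 31 bases before the start and TTNNGNAA 91 bases before it. The Casp1 window held the κB-like motif on the other strand at 158 bases and GAGGAA on the other strand at 108 bases before the start. The Il18 window held only TATAAA on the other strand, 175 bases before the start. No motif was found in all 3 windows, and TATAAA, the only one found in more than 1 of them, lay on different strands. Among 32851 windows of this length, 12.4% held TATAAA, 45.8% the κB-like motif, 6.75% TGANTCA, 23.3% GAGGAA, 36.8% TTNNGNAA and 2.98% the IRF-like motif. A match is a run of letters and not a measured binding site.

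The sensor, the adaptor and the pore protein did not pass the test in Aged vs Control. Nlrp3 (ENSMUSG00000032691, chr11:59541568-59566956, plus strand), the sensor, was at 2.22, 1.50, 1.17 and 2.33 CPM in the Control ovaries and at 0.835, 2.47 and 5.02 CPM in the Aged ovaries. The Aged ovaries reached both below and above all Control ovaries. The log2 fold change was 0.62 (95% interval -0.61 to 1.86; edgeR adjusted p = 0.483) and turned to -0.10 without Aged 34. Pycard (ENSMUSG00000030793, chr7:127989708-127993867, minus strand), the adaptor, was steadier, with 11.9, 12.9, 12.8 and 10.9 CPM in Control and 12.8, 13.2 and 17.7 CPM in Aged. Only Aged 34 was clearly above the Control range, and the log2 fold change was 0.26 (95% interval -0.06 to 0.59; edgeR adjusted p = 0.246). Gsdmd (ENSMUSG00000022575, chr15:75862327-75867408, plus strand), the pore protein, was at 24.9, 26.7, 22.7 and 26.1 CPM in Control and at 23.5, 16.7 and 40.0 CPM in Aged. Here too the Aged ovaries spread to both sides of the Control ovaries, with a log2 fold change of 0.09 (95% interval -0.44 to 0.63; edgeR adjusted p = 0.83) that was -0.28 without Aged 34.

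Among the other ligands, Il1a (ENSMUSG00000027399, chr2:129299610-129309972, minus strand) encodes IL-1α, which is active without cleavage by caspase-1 and signals through the same receptor as IL-1β. It was at 0.408, 0.873, 1.06 and 0.477 CPM in Control and at 1.13, 0.776 and 1.76 CPM in Aged. The groups overlapped through Aged 33, and the log2 fold change of 0.80 did not pass the test (SE 0.42, 95% interval -0.13 to 1.72; edgeR adjusted p = 0.223). Il1rn (ENSMUSG00000026981, chr2:24336853-24351494, plus strand), whose product occupies the IL-1 receptor without signalling, was at 2.16, 1.50, 1.06 and 1.75 CPM in Control and at 0.954, 0.776 and 3.31 CPM in Aged. Aged 31 and 33 were below all Control ovaries and Aged 34 was above them, and the log2 fold change was 0.07 (95% interval -1.16 to 1.30; edgeR adjusted p = 0.949), or -0.85 without Aged 34.

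Tnf and Il6 were at the edge of detection. Tnf (ENSMUSG00000024401, chr17:35199381-35202007, minus strand), an early cytokine of activated macrophages, had 2, 4, 5 and 6 reads in the Control ovaries, 7, 1 and 20 in the Aged ovaries and 6, 12 and 4 in Aged+CF 30, 32 and 34. Il6 (ENSMUSG00000025746, chr5:30013114-30019981, plus strand), a cytokine made downstream of IL-1 and TNF, had 6, 1, 1 and 5 reads in the Control ovaries, 1, 2 and 18 in those of Aged mice and 7, 12 and 12 in those of Aged+CF mice. For both genes most of the Aged reads came from Aged 34. Fitted without the filter on low counts, Tnf had log2 fold changes of 1.18 (SE 0.73; edgeR adjusted p = 0.444) between Aged and Control, and of -0.42 (SE 0.75; edgeR adjusted p = 0.882) between Aged+CF and Aged. In the same fit Il6 had log2 fold changes of 1.13 (SE 0.87; edgeR adjusted p = 0.548) and 0.43 (SE 0.85; edgeR adjusted p = 0.905). A difference was not detectable at this depth, and the values do not show that there was none.

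**Figure D2:**
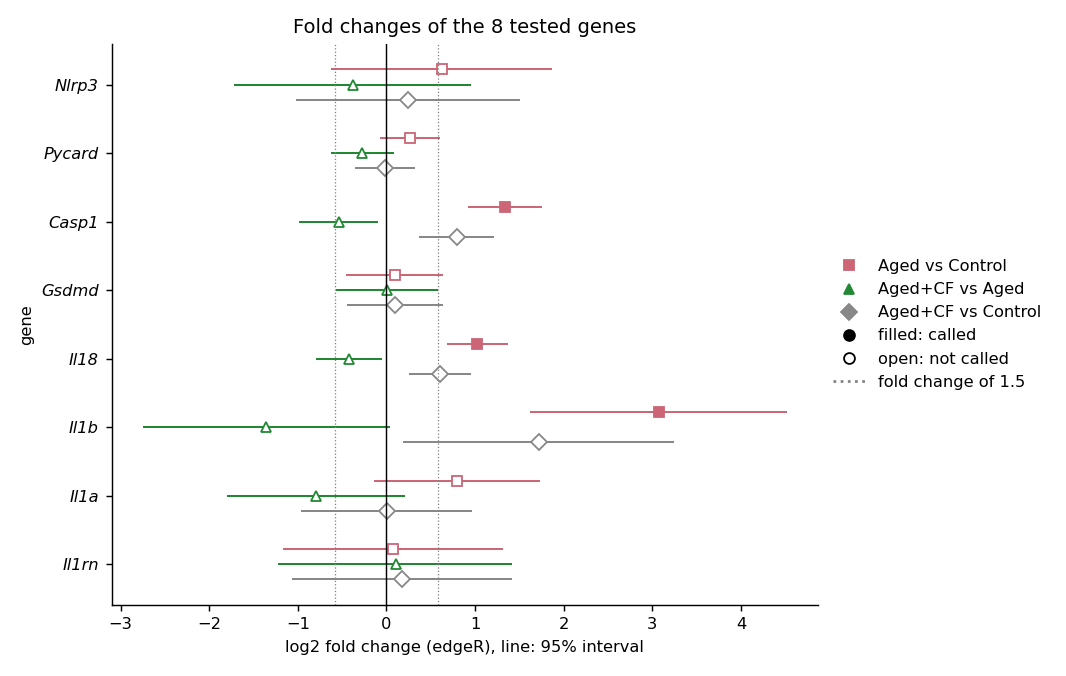
The plot gives the log2 fold change of the 8 tested genes (x axis; line, 95% interval) in Aged vs Control (squares), Aged+CF vs Aged (triangles) and Aged+CF vs Control (diamonds), filled where called at the adjusted p. Filled symbols stand only at Casp1, Il18 and Il1b in Aged vs Control, and the intervals of Nlrp3, Gsdmd and Il1rn span 0 in every comparison.

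The antagonist was set against 1 agonist per ovary as the log2 ratio of Il1rn to Il1b, with 0.5 CPM added to each. Il1a, whose product signals through the same receptor, was left out, so the ratio is not the whole balance. CPM are not divided by gene length, so the ratio compares ovaries and not the levels of the pair of genes. It was 1.55, 1.30, 1.38 and 2.17 in the Control ovaries, -1.02, -0.53 and 1.02 in Aged 31, 33 and 34, and 0.19, 1.73 and 0.78 in Aged+CF 30, 32 and 34. Every Aged ovary was below every Control ovary, whereas Aged+CF ovaries overlapped both groups. The mean of the Control ovaries was 1.60 ± 0.39 (SD, n = 4), that of the Aged ovaries -0.18 ± 1.06 (n = 3), and that of the Aged+CF ovaries 0.90 ± 0.77 (n = 3). The difference of -1.77 between Aged and Control had an exact permutation p of 0.0286, the smallest this design allows, and 0.0857 after adjustment over the 3 pairs of groups (two-sided). It is not separate from the Il1b result, as Il1rn alone did not pass the test (log2 0.07). Il1b passed the filter on low counts only through Aged and Aged+CF ovaries. All its Control values (0.408 CPM at most) were below the 0.5 CPM added. Aged+CF exceeded Aged by 1.08 (exact permutation p = 0.3, where the smallest possible is 0.1), and the difference of Aged+CF from Control was -0.70 (exact permutation p = 0.229), both 0.3 after adjustment. The size depends on the added value: with 0.1 CPM added, or from FPKM with 0.05 added, the difference between Aged and Control was -2.97 or -2.80 (exact permutation p = 0.0286 for both) and that between Aged+CF and Control -1.52 or -1.45 (exact permutation p = 0.143 for both).

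**Figure D3:**
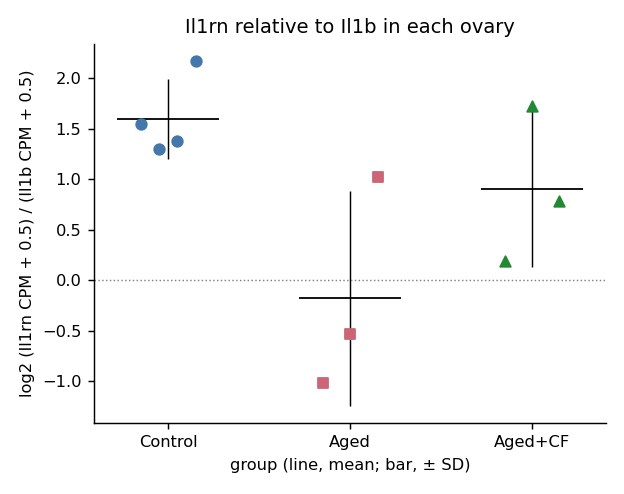
Each point is the log2 ratio of Il1rn to Il1b in an ovary (CPM + 0.5 for both; dotted line, 0), with a line at the group mean and a bar of ± SD. The 4 Control ovaries lie between 1.30 and 2.17, and Aged 31 and 33 lie below 0.

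The Aged+CF vs Aged comparison asked whether the extract changes these transcripts in aged mice. None of the 8 tested genes was called at the adjusted p by edgeR, or by the Wald test of DESeq2, which gave no adjusted p for Il1b and Il1a, against 0.00528% of all genes tested, a single gene, by edgeR. At the unadjusted p with the fold limit, 0 were called by edgeR, against 7.96% of all genes. DESeq2 called only Il1b there, against 1596 of 18956 genes. Without the fold limit, Casp1 and Il18 passed at the unadjusted p, ranking 1603 and 1962 by p among the 18956 genes tested. The share of all genes that pass this rule was not computed. Casp1, Il18 and Il1b were lower in each Aged+CF ovary than in each Aged ovary, a separation in this direction that 8.39% of all genes tested showed. This comparison shares its Aged ovaries with Aged vs Control.

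Casp1 was at 4.82, 4.37 and 5.30 CPM in Aged+CF 30, 32 and 34, where the lowest Aged ovary held 5.97 CPM. The log2 fold change was -0.54 (SE 0.20, 95% interval -0.98 to -0.11; edgeR adjusted p = 0.232). Il18 was at 9.75, 11.3 and 12.3 CPM, under the lowest Aged value of 14.0 CPM, with a log2 fold change of -0.42 (SE 0.16, 95% interval -0.78 to -0.06; edgeR adjusted p = 0.250). As fold changes these were 1.46 and 1.34, under the limit of 1.5. Il1b had 12, 9 and 17 reads, or 0.688, 0.517 and 0.797 CPM, under the lowest Aged value of 1.34 CPM. Its log2 fold change of -1.35 was the largest of the 8 in size, with an interval that reached past 0 (SE 0.62, 95% interval -2.74 to 0.03; edgeR adjusted p = 0.315). Without Aged 34 the log2 fold changes were -0.39 for Casp1, -0.38 for Il18 and -1.51 for Il1b, and the edgeR adjusted p stayed over the threshold for each (0.232, 0.215 and 0.201).

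The other 5 tested genes overlapped between Aged+CF and Aged. Il1a was at 0.516, 0.804 and 0.797 CPM in the Aged+CF ovaries, and its log2 fold change was -0.80 (95% interval -1.79 to 0.20; edgeR adjusted p = 0.398). Pycard was at 11.4, 12.9 and 11.8 CPM (log2 fold change -0.28, 95% interval -0.62 to 0.07). Nlrp3 was at 3.50, 1.32 and 1.59 CPM (log2 fold change -0.38, 95% interval -1.71 to 0.94), a value that was 0.36 without Aged 34. Gsdmd and Il1rn had log2 fold changes of 0.00 (95% interval -0.56 to 0.57) and 0.10 (95% interval -1.21 to 1.41), which were 0.40 and 1.05 without Aged 34, while Il1a and Pycard were then at -0.45 and -0.13. Gsdmd was at 27.3, 28.2 and 25.2 CPM and Il1rn at 0.860, 2.87 and 1.73 CPM. The intervals of Nlrp3, Il1a, Il1b and Il1rn are wide enough to hold a change of more than 2-fold, and a p over the threshold does not show that the groups were alike.

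Aged+CF vs Control asked how far the treated ovaries were from young ones. None of the 8 tested genes was called at the adjusted p by edgeR, against 0.179% of all genes, and 3 were called at the unadjusted p, all higher in Aged+CF, against 7.69% of all genes (3.33% higher). These were again Casp1 (log2 fold change 0.79, SE 0.18; edgeR adjusted p = 0.120), Il18 (0.61, SE 0.15; edgeR adjusted p = 0.135) and Il1b (1.72, SE 0.68; edgeR adjusted p = 0.301). DESeq2 called Il18 and Casp1 at the adjusted p, and edgeR called Casp1 without Aged 34 (adjusted p = 0.0368). Over all genes these fits called 528 of 18956 and 348 of 19342. Il6 was also higher in each Aged+CF ovary (0.401, 0.689 and 0.563 CPM) than in each Control ovary (0.350 CPM at most), as were Casp1, Il18 and Il1b and 9.69% of all genes tested. Its values rest on the few reads given above. The log2 fold changes of Il1a, Pycard, Gsdmd, Il1rn and Nlrp3 lay between -0.01 and 0.24, with edgeR adjusted p of 0.883 or more. For Casp1, Il18 and Il1b all 3 groups were separate, with Control lowest and Aged highest, an order that 167 genes or 0.881% of those tested showed.

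The wider pathway was described with 6 lists of related genes, of which 117 genes were in the table and 101 were tested. In Aged vs Control, 14 were called higher and 2 lower, 15.8% of those tested, against 11.1% of all genes tested (5.0% higher and 6.06% lower). The median log2 fold change of all genes tested was -0.00 in this comparison. This count was unstable: it was 7, 4, 8 and 3 without Control 31, 32, 33 and 34 in turn, and 10 without Aged+CF 32. Without Aged 34 it was 12, and Nod1, Naip2, Nlrp10, Casp4, Il18rap, Tnfrsf1b, Il6ra and Tnfsf13b were not among these. The 16 called genes had edgeR adjusted p between 0.0117 and 0.0498 in Aged vs Control.

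Among 14 tested sensors other than Nlrp3, 3 were called higher and 1 lower in Aged, 28.6% against 11.1% of all genes tested. Their median log2 fold change was 0.57. Nod1, a cytosolic receptor for bacterial peptidoglycan, rose from 40.1 to 60.9 CPM between Control and Aged (log2 0.60). Nlrc3, which is known to restrain innate signalling, rose from 3.49 to 6.10 CPM (log2 0.80). Naip2, a partner of NLRC4 whose reads may be split with near-identical Naip copies and with the overlapping Gm18413, rose from 3.79 to 6.45 CPM (log2 0.77). Nlrp10, a family member without the usual ligand-binding repeats, was the exception with a fall: it was at 7.53, 12.2, 12.7 and 15.5 CPM in the Control ovaries, at 7.22, 4.09 and 4.13 CPM in the Aged ovaries, and at 9.98, 14.7 and 21.8 CPM in the Aged+CF ovaries. Each Aged ovary was below each ovary of both other groups. The log2 fold change of Nlrp10 from Control to Aged was -1.22, and that from Aged to Aged+CF was 1.59 (SE 0.36; edgeR adjusted p = 0.161).

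Of 18 tested inflammasome partners, caspases and pore proteins, 1 was called higher and 1 lower in Aged vs Control. This is 11.1%, the same share as among all genes tested, and the median log2 fold change was 0.35. Casp4, the caspase of the non-canonical inflammasome that senses lipopolysaccharide inside the cell, rose from 2.42 ± 0.515 to 5.80 ± 3.37 CPM (mean ± SD, log2 1.26). It was not called without Aged 34. Panx1, a channel that releases ATP, fell from 28.9 to 18.1 CPM (log2 -0.68). Among 11 tested receptors and decoys, 5 were called higher and none lower, 45.5% of the list, with a median of 0.42. Both chains of the IL-18 receptor were among them: Il18r1 rose from 0.859 ± 0.333 to 4.77 ± 4.34 CPM (log2 2.47) and Il18rap from 0.709 ± 0.197 to 1.53 ± 0.513 CPM (log2 1.12). Without Aged 34, Il18r1 stayed called and Il18rap did not. Il1rl1, the receptor of IL-33, rose from 1.66 to 8.16 CPM (log2 2.30), although Aged 34 alone held 18.4 CPM against 3.04 and 3.03 CPM in Aged 31 and 33. Tnfrsf1b, a TNF receptor of immune cells, rose from 57.1 to 95.9 CPM (log2 0.75) and Il6ra, the IL-6 receptor, from 16.7 to 27.0 CPM (log2 0.70).

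Of 11 tested cytokines outside the 10 genes, 2 were called higher in Aged vs Control and none lower, both TNF family ligands. This is 18.2%, against 11.1% of all genes tested, and the median log2 fold change was 0.26. Ltb, lymphotoxin β, rose from 2.03 to 7.56 CPM (log2 1.90). Tnfsf13b, the B-cell survival factor BAFF, rose from 1.84 to 5.45 CPM (log2 1.57). Ltb was also lower in each Aged+CF ovary (3.04, 2.53 and 3.75 CPM) than in each Aged ovary (3.94, 5.57 and 13.2 CPM), with a log2 fold change of -1.28 (SE 0.47; edgeR adjusted p = 0.237). Its position holds the microRNA gene Mir6973a on the same strand, so the count is uncertain to that extent.

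Among 40 tested genes of the priming pathway, which runs from Toll-like and cytokine receptors to NF-κB, 3 were called higher and none lower, with a median of 0.26. This share of 7.5% is under the 11.1% of all genes tested. Tnip1 rose from 93.0 to 159 CPM (log2 0.78) and Tnfaip3 from 7.37 to 13.6 CPM (log2 0.88), and both encode brakes on NF-κB. Cd14, a co-receptor for lipopolysaccharide on myeloid cells, rose from 4.44 to 8.98 CPM (log2 1.02). In Aged vs Control, none of 7 tested genes of IL-6 signalling was called by edgeR, at the adjusted or the unadjusted p with the fold limit, with a median log2 fold change of -0.01. The genes of that list with the smallest p were Jak1, at 591 CPM in Control and 419 CPM in Aged (log2 -0.50; edgeR adjusted p = 0.0252, fold under 1.5), and Stat3, at 135 and 181 CPM in Control and Aged+CF (log2 0.42; edgeR adjusted p = 0.180).

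Between Aged+CF and Aged, no gene of the 6 lists was called at the adjusted p by edgeR, and 3 were called at the unadjusted p, Nlrp10 as higher and Ltb and Nlrp6 as lower in Aged+CF, Nlrp6 being named after its values were seen. These are 3 of 101 genes, where 7.96% of all genes were called at that p. DESeq2 called Nlrp10 alone at the adjusted p and 6 genes at the unadjusted p, against 442 and 1596 of all 18956 genes. Without Aged 34, edgeR called Nlrp12 alone at the adjusted p, against 556 of 19342 genes. Nlrp12 was named after its values were seen. Between Aged+CF and Control, 0 were called at the adjusted p by edgeR and 5 by DESeq2, which called 528 of all 18956 genes. At the unadjusted p edgeR called 8 as higher and 1 as lower, against 7.69% of all genes. The lower one was Socs1, a brake on cytokine signalling from the IL-6 list (log2 -1.15), named after its values were seen.

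**Figure D4:**
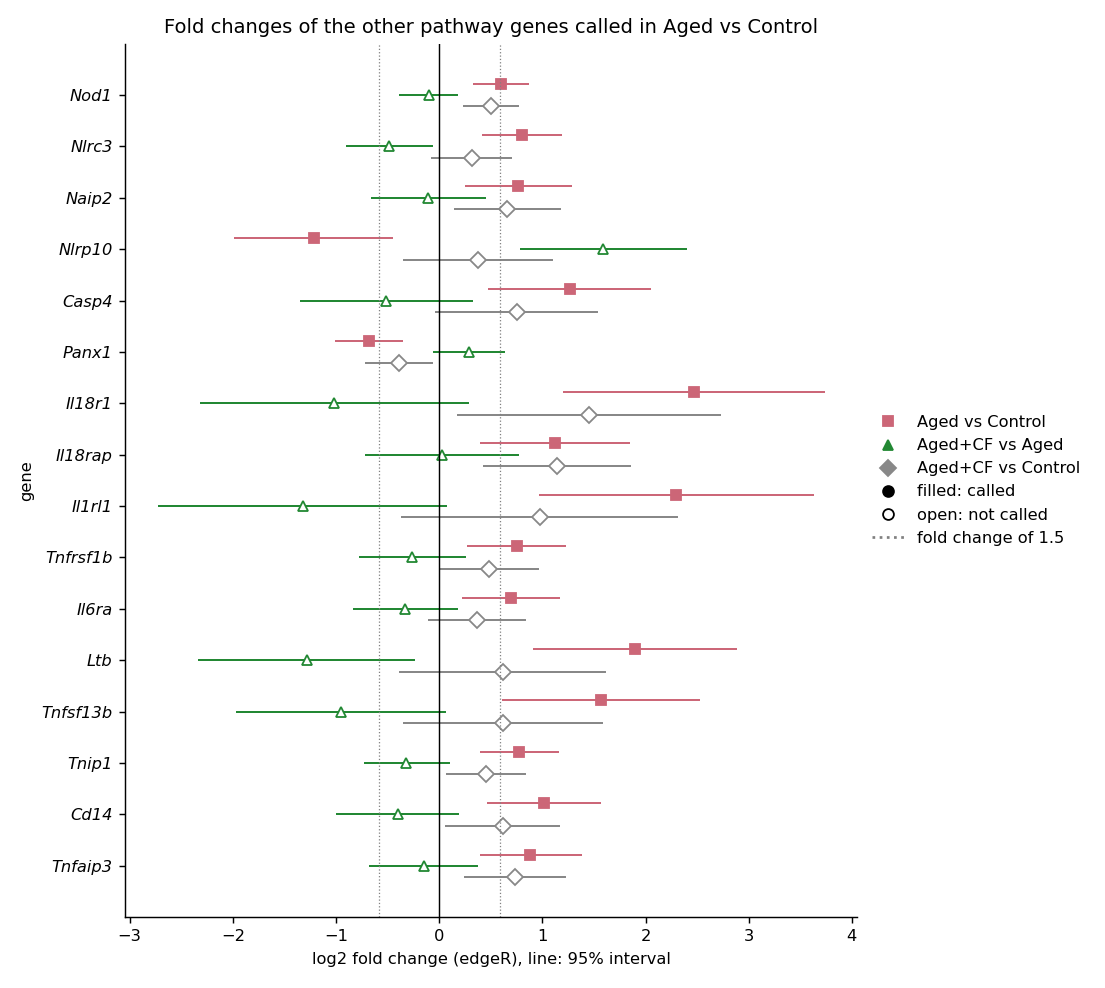
The plot gives log2 fold changes (x axis; line, 95% interval) of the 16 genes of the pathway lists called in Aged vs Control, for Aged vs Control (squares), Aged+CF vs Aged (triangles) and Aged+CF vs Control (diamonds), filled where called at the adjusted p. In Aged vs Control 14 squares lie above 0 and those of Nlrp10 and Panx1 below it, and no triangle or diamond is filled.

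Markers of some immune cell types, though not of all, moved with these results. All 14 macrophage markers had more than 0 reads in every ovary, and their summed level was 647 to 727 CPM in the Control ovaries, 1030 to 1975 CPM in the Aged ovaries and 925 to 1070 CPM in the Aged+CF ovaries. Of these 14, 5 were called higher in Aged vs Control (Ptprc, Itgam, C1qa, Mpeg1 and Lyz2), as were 5.0% of all genes tested. Ptprc, Itgam and Lyz2 are not confined to macrophages, so these calls do not single out that cell type. Among them Lyz2, the lysozyme of myeloid cells, was at a mean of 202, 598 and 340 CPM in the Control, Aged and Aged+CF groups. Of 6 markers of lipid-laden macrophages, 5 were called higher (Gpnmb, Trem2, Lgals3, Spp1 and Atp6v0d2), and the summed level was 172 to 240, 437 to 939 and 400 to 482 CPM in the same order. The groups thus followed the order of Casp1, Il18 and Il1b in their means, but the Aged and Aged+CF ranges of the macrophage and lipid-laden sums overlapped where those of the 3 genes did not. Of 5 monocyte markers, 3 were tested and 2 called higher (Ly6c2 and Ccr2), with sums of 18.6 to 23.5, 18.9 to 37.3 and 22.1 to 24.5 CPM.

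Markers of other immune cells were highest in Aged 34. T cell markers summed to 5.93 to 8.70, 12.8 to 36.8 and 8.66 to 10.5 CPM in the Control, Aged and Aged+CF ovaries. Mast cell markers summed to 5.37 to 10.1, 14.7 to 220 and 9.56 to 25.2 CPM in the same order, and B and plasma cell markers to 3.98 to 5.83, 7.34 to 181 and 5.02 to 7.28 CPM. In Aged vs Control, 4 of 5 tested T cell, 4 of 5 mast cell and 3 of 5 tested B and plasma cell markers were called higher. Of all genes tested, 5.0% were called higher and 6.06% lower. Of 10 neutrophil markers 2 were tested, none was called by edgeR at the adjusted p and 1 at the unadjusted p, and the sums were 4.24 to 20.8, 6.49 to 33.6 and 8.73 to 10.6 CPM. Of 6 dendritic cell markers, all tested, none was called in Aged vs Control at the adjusted p and 1 at the unadjusted p. Their sums overlapped between the groups, at 57.25 to 65.83, 42.75 to 82.93 and 61.63 to 69.15 CPM. Marker sums of ovarian cell types differed between the groups as well. Oocyte markers summed to 325 to 443, 11.2 to 92.3 and 124 to 191 CPM in the Control, Aged and Aged+CF ovaries. Of these 8, 7 were called lower in Aged vs Control, against 6.06% of all genes tested. Luteal markers summed to 727 to 2205, 3234 to 7644 and 2184 to 5924 CPM in the same order. All 4 were called higher in Aged vs Control, against 5.0% of all genes tested. Theca markers summed to 2538 to 5794, 8171 to 20330 and 6612 to 10710 CPM. Of these 4, 2 were called higher in Aged vs Control, against 5.0% of all genes tested. The theca markers did not move as 1, as 1 of 4 was called lower at the unadjusted p. Granulosa markers summed to 4080 to 6866, 3098 to 3507 and 2214 to 3903 CPM. The part of these cell types in the differences of Casp1, Il18 and Il1b was not tested.

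**Figure D5:**
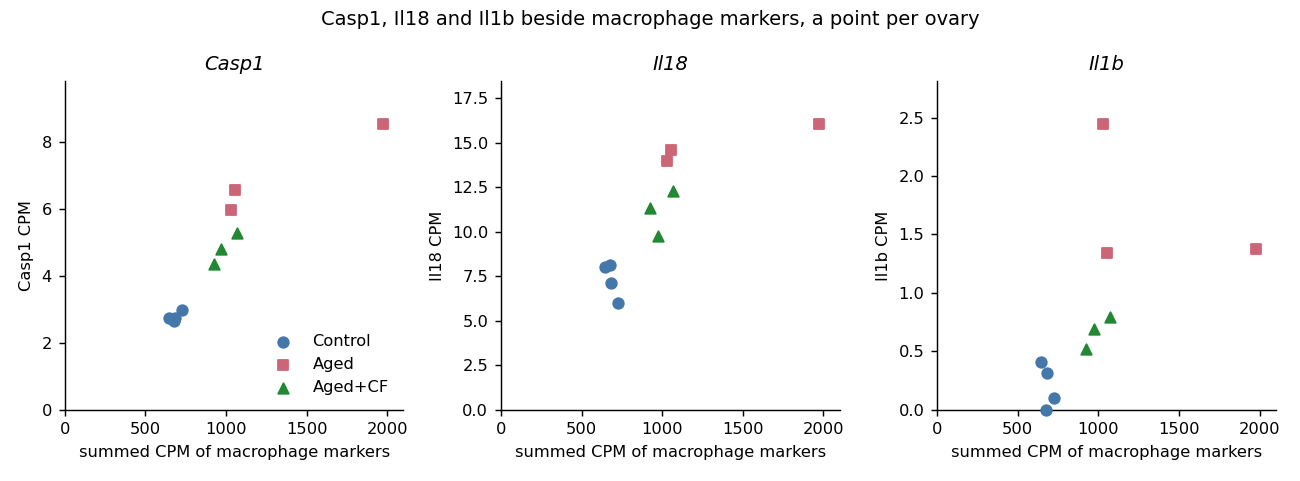
Each panel plots an ovary's CPM of Casp1, Il18 or Il1b (y axis) against its summed CPM of 14 macrophage markers (x axis), coloured by group. Control ovaries lie together at 647 to 727 CPM of markers, Aged 31 and 33 lie at 1030 and 1056 CPM, among or near the Aged+CF ovaries at 925 to 1070 CPM and above them in each panel, and Aged 34 lies far to the right at 1975 CPM.

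Genes on the opposite strand overlap some of the 10 genes, and the strand setting of the counting is not given in the sources used here. Il1bos shares 25 of 1907 exon bases of Il1b (1.31%) and was at 0 CPM in all Aged ovaries. Gm14023 shares 11.2% of the exon bases of Il1a, and Gm45205 shares 12.8% of those of Pycard. Bco2 and Tex12 overlap Il18 without sharing an exon base. Bco2 was at a mean of 2.755, 6.784 and 4.301 CPM in the Control, Aged and Aged+CF groups, the same order as Il18. Whether reads of Bco2 enter the count of Il18 was not tested. Casp1, Nlrp3, Gsdmd, Il1rn, Il6 and Tnf overlap no other gene of the annotation.

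Across the 10 ovaries, the log2 CPM of Casp1 and Il18 had a Pearson correlation of 0.932, Casp1 and Il1b of 0.845 and Il18 and Il1b of 0.832, with the 3 groups pooled so that the group differences enter. Il1a and Pycard correlated at 0.851 and Gsdmd and Il1rn at 0.748, the latter pair both high in Aged 34. Nlrp3 correlated with no other member above 0.438. Among all tested genes, the pattern of Casp1 was most like those of Bco2 (0.977) and Gna14 (0.973), that of Il18 like Robo4 (0.976) and Lilra5 (0.968), and that of Il1b like Gm27505 (0.969) and Gzmb (0.940). Nearest to the other tested genes were Acaa1b (0.908) and Gmfg (0.899) for Il1a, Fam169a (0.917) and Gm48078 (0.891) for Nlrp3, Slc43a3 (0.928) and Cd4 (0.916) for Pycard, Fgfr1 (0.966) and Olfr1372-ps1 (0.965) for Gsdmd, and Slc7a11 (0.961) and Galns (0.927) for Il1rn. These are the highest of 18956 values from 10 ovaries that share library depth and group, and are given as a description.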

How the data were processed

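RNA-seq of 10 ovaries (Control n = 4, Aged n = 3, Aged+CF n = 3) was used, grouped by the labels. The deposited table gives unnormalized read counts of each gene in each ovary and the FPKM that the authors computed from them. Per the submitters' processing notes the reads were handled with TopHat and Cufflinks 2.1.1 on GRCm38.p4, and strand setting and counting tool are not given in the sources used here. The replicate numbers mark different animals. No deposited library was a duplicate of another.

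Counts of the 18956 genes kept by the edgeR filter (10 reads at the median depth, or 0.575 CPM, in at least 3 ovaries) were scaled by TMM and fitted with edgeR 4.0 in R 4.3 to all 10 ovaries with a mean per group, and the 3 pairs of groups were tested with the two-sided quasi-likelihood F test. The study's methods use an adjusted p and its results an unadjusted p, so both were computed. Standard errors were derived from the F statistic. Of all genes, 18869 had no read in any ovary. The biological coefficient of variation was 0.209 among Control, 0.378 among Aged and 0.193 among Aged+CF ovaries. Of 55487 gene identifiers 55141 were found in GENCODE M21 (GRCm38), which gave positions and overlaps, and 9 of 10 genes in the RefSeq promoter table.

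The 10 genes, the related lists and the marker lists were written from general knowledge with earlier results of these data known. Named besides the 10 genes are those of each list called at adjusted p, up to 5 a list and comparison, up to 2 by smallest p where none was called, and the 2 tested genes with the highest correlation of log2 CPM (prior count 2) to each member. Alternatives were size factors of DESeq2, no filter, only the compared groups, a block for the replicate number, the Wald test of DESeq2 1.42, leaving out each ovary, and for the Il1rn to Il1b ratio another pseudocount and FPKM.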

Additional observations from a re-analysis of the deposited data

Results flagged for a closer look

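The summed level of 5 oviduct markers in Control ovaries had a sample far from the others: Control 33 was at 394.9 CPM, while the other Control ovaries lay between 7.918 and 16.49 CPM. The gap divided by the range was 0.978, above Dixon's 95% critical value for 4 samples. This was the only one of 26 groups of values checked that passed, where chance gives about 1 in 20. In Control 33, Casp1 was at 2.99 CPM, Il18 at 5.98 CPM and Il1b at 0.101 CPM, and these 3 genes kept their calls in Aged vs Control without it.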

How the results depend on the processing

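Casp1, Il18 and Il1b were called higher in Aged vs Control under every alternative except the replicate block, where 0 were called at log2 fold changes of 1.30, 1.03 and 3.17 (edgeR adjusted p = 0.0623, 0.0605 and 0.0869); leaving out 1 ovary gave 3 to 3, and 3 to 5 at the unadjusted p. Ovaries with the same replicate number come from different mice, and what the numbers stand for is not given in the sources used here. Deviations of same-numbered ovaries correlated between -0.185 and 0.153. With so few ovaries per group, these values cannot decide whether the numbers mark a shared factor. The block gave 80 called genes over all genes, against 2096. In Aged+CF vs Aged the members called at the unadjusted p went from 0 to 1 with only the compared groups and to 1 with DESeq2 (Il1b in both), and ranged from 0 to 1 leaving out 1 ovary. Against Control they went from 0 to 1 with only the compared groups (Casp1) and to 2 with DESeq2 at the adjusted p, and ranged from 0 to 1 leaving out 1 ovary, or 1 to 3 at the unadjusted p.

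Of the related genes, 16 were called in Aged vs Control, but 9 without the filter, 5 with only the compared groups, 0 with the replicate block and 3 to 17 leaving out 1 ovary. Between Aged+CF and Aged, 0 became 1 with DESeq2 and 0 to 1 leaving out 1 ovary, and 3 at the unadjusted p became 7 without the filter, 9 with the block, 6 with DESeq2 and 2 to 13 leaving out 1 ovary (13 without Aged 33, 7 without Aged 34, 6 without Aged 31 or Aged+CF 34, 5 without Aged+CF 30). Between Aged+CF and Control, 0 became 1 with only the compared groups, 5 with DESeq2 and 0 to 2 leaving out 1 ovary, and 9 at the unadjusted p became 15 with only the compared groups and 5 to 15 leaving out 1 ovary (15 without Aged 34, 5 without Aged+CF 32). Over all genes, Aged vs Control gave 2096 called genes and 1081 to 3112 leaving out 1 ovary, Aged+CF vs Aged 1, or 442 with DESeq2 and 556 without Aged 34, and Aged+CF vs Control 34, or 487 with only the compared groups and 528 with DESeq2. The cause of these shifts was not tested.

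Signs turned for uncalled members. In Aged vs Control, Il1rn was -0.003 with the block and -0.853 to 0.422 leaving out 1 ovary, Nlrp3 -0.104 to 1.083 and Gsdmd -0.28 to 0.365. In Aged+CF vs Aged, Gsdmd was -0.009 with only the compared groups, -0.245 with the block and -0.237 to 0.402 leaving out 1 ovary, Il1rn -0.372 to 1.049 and Nlrp3 -0.937 to 0.365. Between Aged+CF and Control, Nlrp3 was -0.617 with the block and -0.281 to 0.49 leaving out 1 ovary, Gsdmd -0.161 with the block, Pycard 0.008 with size factors of DESeq2 in edgeR, 0.009 with only the compared groups, 0.008 with DESeq2 and -0.067 to 0.05 leaving out 1 ovary, Il1a -0.185 to 0.278 and Il1rn -0.307 to 0.531. The ratio of Il1rn to Il1b in Aged vs Control stayed negative, between -2.372 and -1.354 leaving out 1 ovary, with exact permutation p of 0.0667 to 0.1, since fewer ovaries raise the smallest p possible. With 0.1 CPM added or with FPKM it was -2.973 or -2.805, against -1.775, and in Aged+CF vs Control -1.517 or -1.445, against -0.696. DESeq2 gave no adjusted p for Il1b and Il1a in Aged+CF vs Aged. With 0 to 41 reads per ovary, depth limits Il1b, Tnf and Il6.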
